A study of Arabidopsis thaliana with 6 samples.

Results

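PRL and AUR1 are 2 genes of the plant cell division cycle, chosen by their symbols from 13356 genes that the ATH1 array measured in Arabidopsis thaliana rosettes. All plants were Col-0 carrying cat2-2, a mutation in the gene of the principal catalase of leaves, an enzyme that breaks down the hydrogen peroxide of photorespiration. Treated rosettes (24 h, n = 3 arrays) came from plants 22 days old kept under constant illumination on plates resealed with film, so that air exchanged slowly; the labels name this photorespiratory conditions. Untreated rosettes (0 h, n = 3 arrays) came from plants 21 days old grown in long days. Both groups carry cat2-2 and grew on plates with sucrose, shared with plants of the double mutant shr-6 cat2-2; neither that double mutant nor a wild type was analysed here. Each replicate pooled many rosettes. Resealing, continuous light, 1 day of age and any difference in the hour of sampling come together in this comparison and cannot be told apart.

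PRL (PROLIFERA, locus AT4G02060) encodes the MCM7 subunit of the hexameric MCM helicase, which is loaded at replication origins in G1 and unwinds DNA in S phase. AUR1 (locus AT4G32830) encodes an Aurora kinase, a serine/threonine kinase of spindle assembly and cell plate formation in mitosis. In a rosette, transcripts of both are known mainly from young leaves and the shoot apex, where cells still divide, while mature leaf cells have left the cycle. Many S-phase genes are known targets of E2F transcription factors and many mitotic genes of three-repeat MYB factors.

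Values are RMA levels on a log2 scale, 1 per probe set and array, as the authors deposited them. Array medians lay between 6.22 and 6.27. Arrays of 1 group correlated at Pearson's r of 0.996 to 0.997 and arrays of different groups at 0.955 to 0.966, over probe sets that are not independent of each other. Log2 fold changes are treated minus untreated and carry their SE after the ± sign unless SD is written. Each adjusted p comes from limma's moderated test, with the Benjamini-Hochberg method applied across 22746 probe sets. A change was called at an adjusted p under 0.05. Precision is limited by having 3 arrays a group.

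Treated rosettes held 3.76-fold less PRL transcript and 1.65-fold less AUR1 transcript than untreated rosettes. PRL stood at 5.57, 5.29 and 5.47 on the treated arrays, against 7.31, 7.42 and 7.32 on the untreated arrays. Every treated array lay below every untreated one, with a gap of 1.74 between the groups. The means were 5.44 ± 0.14 in treated and 7.35 ± 0.06 in untreated rosettes (SD, n = 3 each), a log2 fold change of -1.91 ± 0.09 (adjusted p = 3.00e-08).

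AUR1 stood at 6.41, 6.45 and 6.55 on the treated arrays, against 6.93, 7.51 and 7.13 on the untreated arrays. The groups did not overlap, but the gap was only 0.38, and the untreated arrays spread more widely than the treated ones. The means were 6.47 ± 0.07 in treated and 7.19 ± 0.29 in untreated rosettes (SD, n = 3 each), a log2 fold change of -0.72 ± 0.13 (adjusted p = 0.000737). Its call was lost when limma's treat asked for more than a log2 size of 0.5 (adjusted p = 0.371), whereas PRL kept its call there. In these pooled tissues, fewer dividing cells and less transcript per dividing cell cannot be told apart.

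**Figure D1:**
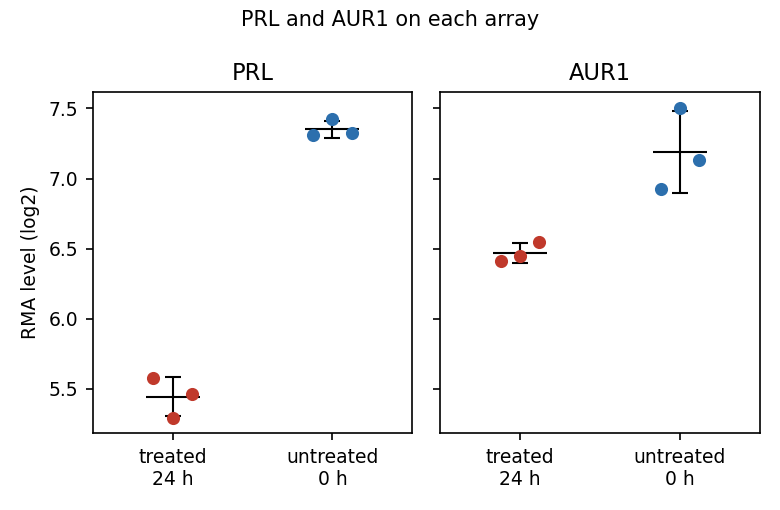
RMA log2 levels of PRL and AUR1 on each array, treated (24 h, red) left of untreated (0 h, blue); points are replicates 1, 2 and 3 from left to right, the long bar is the mean and the whisker the SD (n = 3). PRL at 5.29 to 5.57 in treated rosettes stands clear of 7.31 to 7.42 in untreated rosettes, and AUR1 lies at 6.41 to 6.55 against 6.93 to 7.51.

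A decrease was common on these arrays: 5059 of 22746 probe sets, 22.2%, were called lower, and 6077, 26.7%, had every treated array below every untreated one. Called higher were 19.4%, which makes 41.7% called in either direction, and in 24.0% every treated array lay above every untreated one. Within that background PRL had the 76th most negative change among 13356 genes, in the lowest 0.569%, and AUR1 the 812th, in the lowest 6.08%. The SE of AUR1 was wider than that of 94.3% of probe sets, and that of PRL wider than 53.4%. Each gene had 1 probe set naming it alone. Ranked among all probe sets, the PRL mean stood above 40.8% of them in treated rosettes and 65.3% in untreated rosettes. The AUR1 mean stood above 53.1% in treated rosettes and 62.7% in untreated rosettes. Whether the treated levels are above background was not tested.

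**Figure D2:**
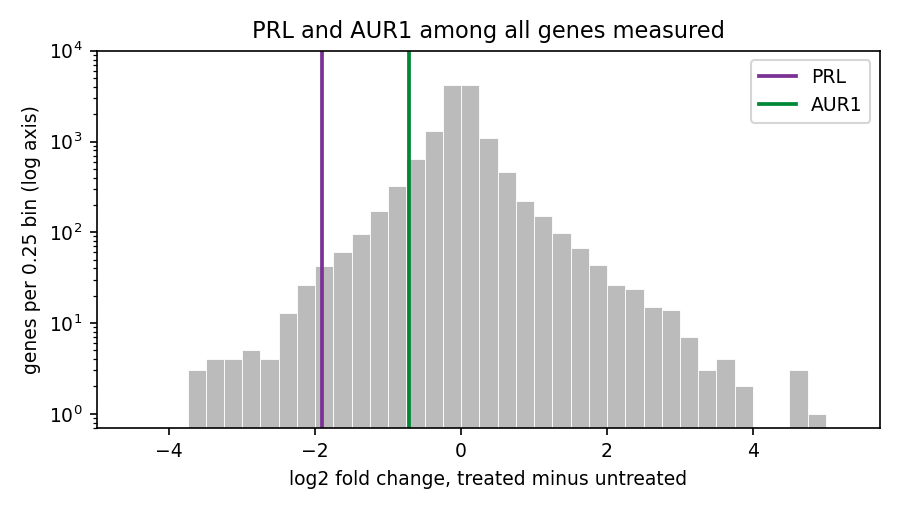
Number of genes (log axis, bins of 0.25) by log2 fold change, treated minus untreated, for all 13356 genes measured, with PRL and AUR1 as vertical lines. PRL, at -1.91, is in the thin lower tail and AUR1, at -0.72, in the shoulder.

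The decrease had a larger size in PRL than in AUR1, a difference that 3 against 3 arrays cannot bring past 0.05 in an exact test. The per-array log2 difference of PRL minus AUR1 was -0.84, -1.16 and -1.08 in treated rosettes, against 0.39, -0.08 and 0.19 in untreated rosettes. Its change of -1.19 ± 0.17 corresponds to a 2.28-fold stronger decrease of PRL. The groups of 3 arrays did not overlap in this difference (exact permutation test, two-sided p = 0.10, the smallest that 3 against 3 arrays allow; 0.15 after Benjamini-Hochberg adjustment over 3 pairs of genes compared). A difference taken on 1 array does not depend on how arrays were shifted against each other.

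For the rest of the cell cycle, lists of loci were set by role and counted as measured where a probe set could be tied to the locus. PRL, AUR1 and the lists were chosen with earlier results of these data known. The counts below are therefore a description and not a test. The other loci may be among the 8730 probe sets that the platform table does not list or the 503 that name several genes. Whether they are on the array at all was not checked. In the lists of replication, histone and mitosis, 17 of 96 loci were measured, PRL and AUR1 among them, and 15 of the 17 (88.2%) fell while 0 rose, against 22.2% lower and 19.4% higher over all probe sets. Without PRL and AUR1, 13 of 15 fell, with a median log2 fold change of -0.68, against -0.01 over all probe sets. At an unadjusted p under 0.05 the 17 held 15 lower and 0 higher, and without moderation of the variances 13 lower and 0 higher. In 14 of the 17 every treated array lay below every untreated one, against 26.7% of all probe sets. A decrease of at least 2-fold was seen in 6: PRL, the topoisomerase gene TOPII, AUR2, the polymerase gene ICU2, the histone gene HTB1 and the checkpoint gene BUB3.1. With arrays anchored on the bright spiked control transcripts, ICU2 (log2 -0.99), HTB1 (-0.92) and BUB3.1 (-0.89) fell short of 2-fold. Over all 13356 genes, 6.08% had a change as low as that of AUR1 (log2 -0.72) or lower. The share past 2-fold is thus smaller than that.

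In DNA replication, 5 of 41 listed loci were measured and 3 fell, against 22.2% of all probe sets. Of the 6 subunits of the MCM helicase, only PRL could be tied to a probe set, so the other subunits are not described. ICU2, the catalytic subunit of DNA polymerase alpha, which lays down primers for the new strands, stood at 3.62, 3.66 and 3.48 on treated arrays, against 4.75, 4.64 and 4.81 on untreated arrays. All treated arrays were lower, a 2.21-fold decrease (log2 -1.14 ± 0.08; adjusted p = 7.69e-07). Its treated mean stood above only 6.31% of probe sets, near the dim end of the array. The locus AT5G26680 fell 1.23-fold with overlapping groups (log2 -0.30 ± 0.10; adjusted p = 0.0329). That call rested on single arrays: leaving out untreated replicate 2 (log2 -0.22), untreated replicate 3 (-0.28), treated replicate 1 (-0.26) or treated replicate 2 (-0.30) ended it, as did no moderation and anchoring on the spiked control transcripts.

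A further 2 replication loci did not pass the test. PSF2, a subunit of the GINS complex that travels with the MCM helicase at the fork, stood at 5.54, 5.66 and 5.39 in treated rosettes, against 5.60, 5.76 and 5.64 in untreated rosettes (log2 -0.13 ± 0.09; adjusted p = 0.284). The groups overlapped. AT1G07270 stood at log2 -0.10 ± 0.08 (adjusted p = 0.404). Both values turned positive with arrays anchored on the bright spikes (log2 0.019 for PSF2 and 0.053 for AT1G07270).

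Histone genes are known for expression in S phase, when new chromatin is assembled. HTB1, a histone H2B gene, stood at 7.64, 7.66 and 7.82 in treated rosettes, against 8.76, 8.98 and 8.60 in untreated rosettes, with no overlap. Its decrease was 2.11-fold (log2 -1.08 ± 0.10; adjusted p = 6.76e-06). HTR12, the centromeric histone H3 on which kinetochores form, fell 1.61-fold (log2 -0.68 ± 0.10; adjusted p = 0.000173). These were both measured members of the 9 loci listed. Over all probe sets 22.2% fell.

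A second histone H2B gene, HTB2, stood in a list of 7 further division genes taken from the annotation after the gene table had been seen. HTB2 stood at 6.99, 7.14 and 7.38 in treated rosettes, against 9.20, 9.45 and 9.02 in untreated rosettes. The groups lay 1.64 apart, a 4.15-fold decrease (log2 -2.05 ± 0.12; adjusted p = 1.77e-07), past that of PRL. Neither H2B probe set has an ID ending that marks probes shared between transcripts, and both calls held with such sets left out (log2 -1.08 for HTB1 and -2.05 for HTB2). Histone H2B genes are near-identical copies, and binding of other family members to these probes was not tested.

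All 10 measured loci of the mitosis list, of 46 listed, fell, and in all 10 every treated array was below every untreated one. Over all probe sets 22.2% fell and 26.7% were separated in that way. Their log2 fold changes ran between -1.72 and -0.47 with a median of -0.71, so AUR1 lay in the middle of the list. Averaged over the 10, the log2 level was 4.86 to 4.90 on the treated arrays and 5.62 to 5.90 on the untreated arrays. The count was 9 without moderation and 3 under treat at a log2 size of 0.5.

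The Aurora family has 3 genes in Arabidopsis, and each of them fell, against 22.2% of all probe sets. AUR2, the closest relative of AUR1, stood at 5.43, 5.36 and 5.23 in treated rosettes, against 6.29, 6.76 and 6.66 in untreated rosettes. With no overlap, it fell 2.34-fold (log2 -1.23 ± 0.12; adjusted p = 6.34e-06). AUR3, which is known for phosphorylation of histone H3 at centromeres, stood at 4.59, 4.51 and 4.43 in treated rosettes, against 4.999, 5.43 and 5.01 in untreated rosettes. Its decrease was 1.55-fold (log2 -0.64 ± 0.11; adjusted p = 0.000778). Binding of other Aurora family members to the probes of these 3 genes was not tested.

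The change of AUR2 differed from that of AUR1 by -0.51 ± 0.13 on the log2 scale, with exact permutation p = 0.10 (two-sided, the smallest possible) and 0.15 after adjustment over 3 pairs. AUR3 differed from AUR1 by 0.08 ± 0.10 (exact p = 0.60, adjusted 0.60), which does not show that they changed alike. The untreated array of replicate 2 was the highest of its group for AUR1, AUR2 and AUR3 alike.

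Of the chromosomal passenger complex, in which Aurora kinases act, 2 listed loci were measured and both fell, against 22.2% of all probe sets. WYR (WYRD), the plant relative of INCENP, the scaffold of that complex, fell 1.39-fold (log2 -0.47 ± 0.12; adjusted p = 0.00785). The groups of WYR were separated by only 0.017, and its call was lost with arrays anchored on the bright spikes (log2 -0.32) and without moderation. AT4G39630, listed with the passenger complex by its locus, fell 1.56-fold (log2 -0.64 ± 0.09; adjusted p = 0.000113). No probe set here was tied to the spindle factor TPX2.

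**Figure D3:**
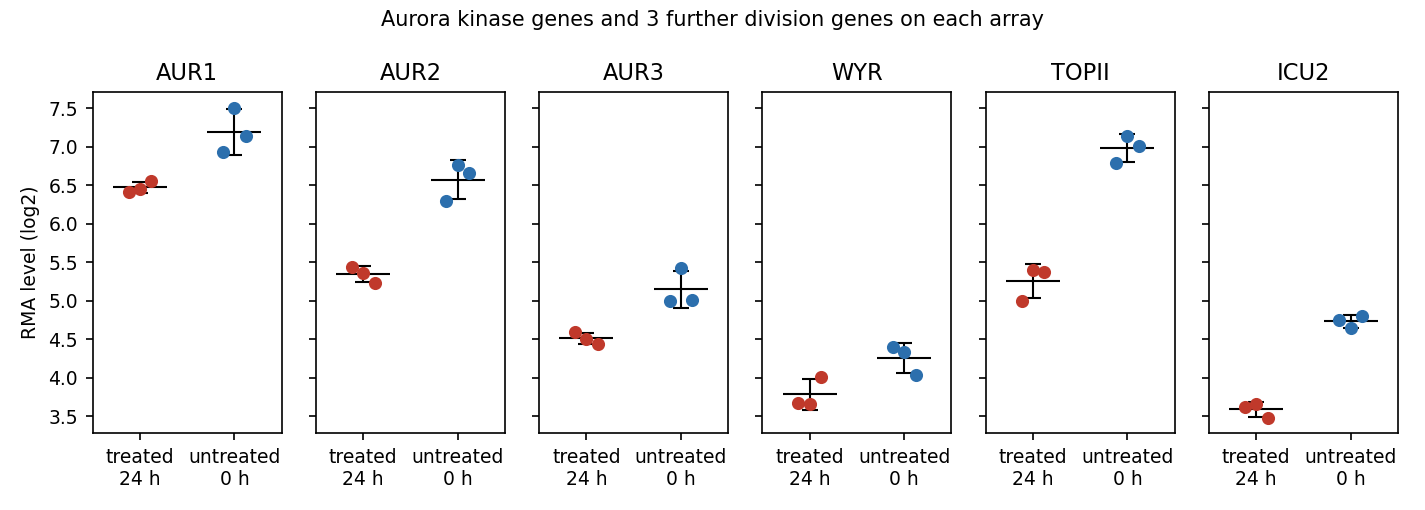
RMA log2 levels on each array of AUR1, AUR2, AUR3, the passenger gene WYR, the topoisomerase gene TOPII and the polymerase gene ICU2, treated (24 h, red) left of untreated (0 h, blue), with replicates 1 to 3 from left to right, mean and SD (n = 3). All treated points lie below all untreated points in each of these genes, with the narrowest gap, 0.017, in WYR and the widest, 1.38, in TOPII; levels of different probe sets are not comparable with each other.

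Other mitotic genes fell by sizes between those of WYR and PRL. TOPII, topoisomerase II, which untangles sister chromatids, stood at 4.998, 5.40 and 5.37 in treated rosettes, against 6.78, 7.14 and 7.01 in untreated rosettes. It fell 3.29-fold (log2 -1.72 ± 0.12; adjusted p = 6.56e-07), the largest decrease in the mitosis list. BUB3.1 and BUBR1, proteins of the spindle checkpoint, fell 2.06-fold (log2 -1.04 ± 0.09) and 1.47-fold (log2 -0.56 ± 0.10). KINESIN-12B, a motor of the phragmoplast that builds the new cell wall, fell 1.62-fold (log2 -0.69 ± 0.09), and the listed locus AT2G28620 fell 1.67-fold (log2 -0.74 ± 0.12). Several of these means were dim in treated rosettes, standing above only 10.3% of probe sets for WYR, 14.5% for AT4G39630, 15.2% for AT2G28620 and 17.6% for BUBR1.

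Among the 7 further division genes, 4 fell and 0 rose, with 0 higher at an unadjusted p under 0.05, against 22.2% lower and 19.4% higher over all probe sets. Besides HTB2 these were ATMAP65-6, a microtubule-associated protein, at 1.65-fold (log2 -0.72 ± 0.08), KINESIN-13A at 1.51-fold (log2 -0.59 ± 0.08) and HBT (HOBBIT) at 1.18-fold (log2 -0.24 ± 0.07; adjusted p = 0.0241). HBT and CDC27a encode alternative CDC27 subunits of the anaphase-promoting complex, which marks cyclins for degradation. CDC27a did not pass (log2 -0.23 ± 0.09; adjusted p = 0.0637), nor did the condensin-type gene ATSMC2 (log2 -0.28 ± 0.11; adjusted p = 0.0546) or cdc2cAt (log2 0.14 ± 0.08; adjusted p = 0.215). Each of these 3 passed in 1 other setting: CDC27a, lower, without untreated replicate 2 (log2 -0.31; adjusted p = 0.0137), ATSMC2, lower, without untreated replicate 3 (log2 -0.35; adjusted p = 0.0310), and cdc2cAt, higher, on the bright spikes (log2 0.29; adjusted p = 0.0270). HBT missed the threshold when untreated replicate 2 (log2 -0.20), treated replicate 1 (-0.23) or treated replicate 3 (-0.22) was left out, and when arrays were anchored on the spikes.

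**Figure D4:**
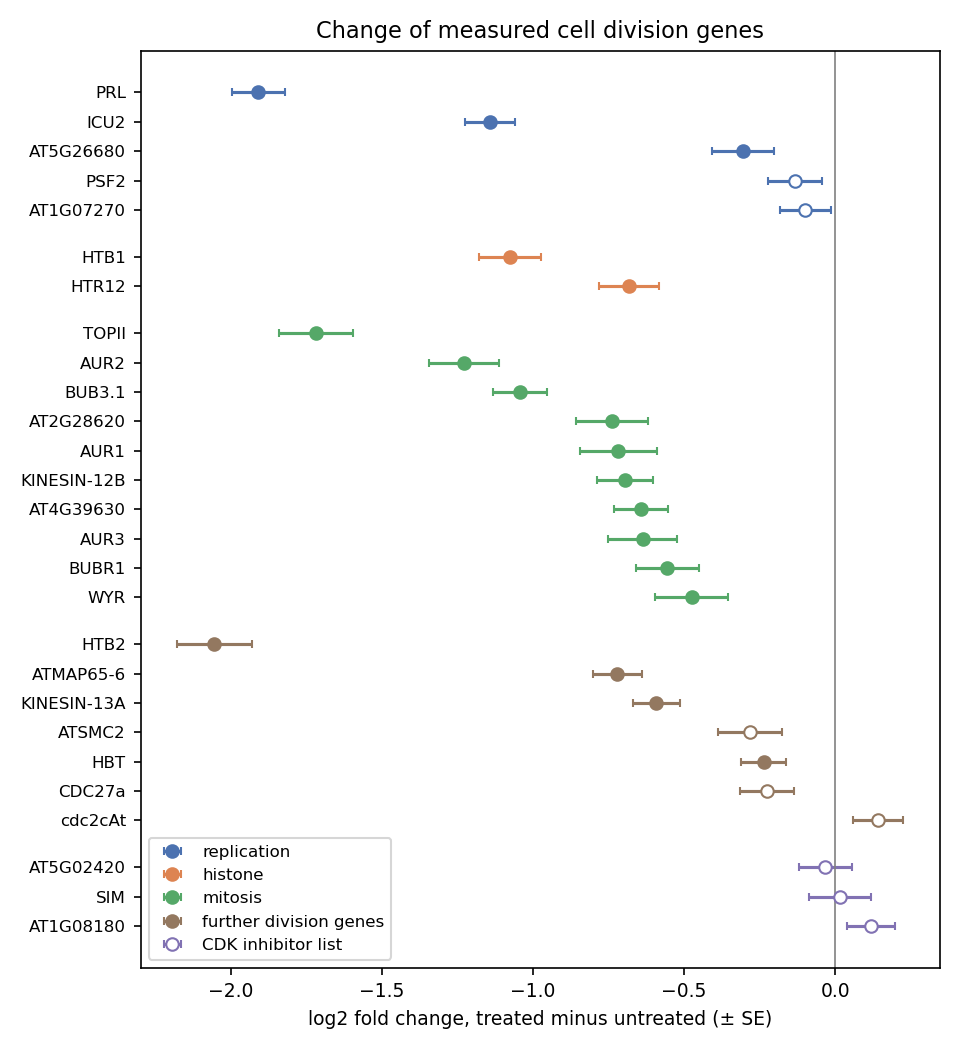
Log2 fold change, treated minus untreated, with SE (n = 3 arrays a group), of measured cell cycle genes. Shown are the measured replication, histone and mitosis lists, the 7 further division genes and the measured cell cycle inhibitors (CDK inhibitor list in the key). Filled points passed an adjusted p under 0.05 (limma, all probe sets). All filled points are below 0, between -2.05 for HTB2 and -0.24 for HBT, and the 3 inhibitor loci sit at -0.032 to 0.12.

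CDK inhibitors are known to halt the cycle or turn it to endoreduplication. Of 17 listed loci of cell cycle inhibitors, CDK inhibitors among them, 3 were measured, all of the SIAMESE family of CDK inhibitors. Limma called 0 of these 3 in either direction, against 41.7% of all probe sets. The count was also 0 at an unadjusted p under 0.05 and 0 without moderation. With 3 loci, this does not show that inhibitors were unchanged. SIM (SIAMESE), an inhibitor known from trichomes, stood at 6.21, 6.10 and 6.001 in treated rosettes, against 5.98, 6.30 and 5.98 in untreated rosettes (log2 0.015 ± 0.10; adjusted p = 0.932). AT1G08180 stood at log2 0.12 ± 0.08 and AT5G02420 at -0.032 ± 0.09, with overlapping groups in both. AT1G08180 passed, higher, with arrays anchored on the bright spikes (log2 0.27; adjusted p = 0.0254). Of 26 listed regulators, the D-type cyclins and the E2F and three-repeat MYB factors among them, 0 could be tied to a probe set, nor could any of 7 listed genes of the DNA damage response.

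A further list of 8 genes of DNA repair and telomeres, also taken from the annotation after the gene table was seen, held 2 that fell and 0 that rose, with 0 higher at an unadjusted p under 0.05. TOP3A, a topoisomerase that resolves recombination intermediates, fell 1.62-fold (log2 -0.69 ± 0.09; adjusted p = 7.14e-05). POLH, a polymerase that copies past DNA lesions, fell 1.36-fold (log2 -0.44 ± 0.10; adjusted p = 0.00308; with arrays anchored on the bright spikes, adjusted p = 0.0510). The 2 of 8 lower in this list, with a median log2 of -0.15, compare with 22.2% lower over all probe sets.

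Markers of the cell types that a rosette sample could hold were measured in small numbers. Of 4 shoot meristem markers 1 was measured, CLV3, the stem cell peptide gene, at 3.57, 3.55 and 3.78 in treated rosettes, against 3.71, 3.81 and 3.78 in untreated rosettes (log2 -0.13 ± 0.08; adjusted p = 0.248). The groups overlapped, and its untreated mean stood above only 10.1% of probe sets. Of 6 listed growth factors of young leaves 0 were measured. Of 6 markers of the stomatal lineage, whose early cells divide, 3 were measured and 1 fell, against 22.2% of all probe sets. It was SPCH, which starts the lineage (log2 -0.49 ± 0.09, adjusted p = 0.000643). The later factors MUTE (log2 0.11 ± 0.10; adjusted p = 0.464) and FMA (log2 0.14 ± 0.09; adjusted p = 0.215) did not pass and had the opposite sign, and the median of the 3 was 0.11. On the bright spikes both passed, higher (log2 0.26 for MUTE and 0.30 for FMA; adjusted p = 0.0389 and 0.0177), and without untreated replicate 1 MUTE stood at -0.0053. Averaged over the 3, the log2 level was 5.18 to 5.23 on treated arrays and 5.17 to 5.35 on untreated arrays. The part of these cells in the decrease of PRL and AUR1 was not tested.

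RCA, the Rubisco activase of green leaf cells, stood at 14.36, 14.42 and 14.38 in treated rosettes, against 14.25, 14.19 and 14.16 in untreated rosettes, at the bright end of the array as the label rosette implies. Its log2 fold change of 0.19 ± 0.07 did not pass (adjusted p = 0.0625), but did with equal array medians (adjusted p = 0.0346) and 5 other settings. Of 4 root markers 2 were measured and 0 called, against 41.7% of all probe sets called in either direction. At an unadjusted p under 0.05 the count was also 0. Of 4 flower markers 0 were measured.

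The replicates of the untreated group were not alike in many of the cell division genes. Untreated replicate 2 was the highest untreated array for 17 of the 24 measured genes of the replication, histone, mitosis and further division lists, PRL and AUR1 included, whereas it was the highest for 34.7% of all probe sets. Over the 10 mitosis loci its mean log2 level was 5.90, against 5.62 and 5.66 on the other untreated arrays. Over the 2 histone loci it was 7.12, against 6.86 and 6.85. It stood out less over the 5 replication loci (5.67, against 5.57 and 5.65) and the 7 further division genes (6.72, against 6.67 and 6.59). These genes share their arrays, so the count is a description. Without untreated replicate 2 the decrease of AUR1 was -0.56 on the log2 scale and that of PRL -1.87, and all 10 mitosis loci still fell.

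Likeness was measured as the root mean square difference of the 6 array values, each gene centred on its own mean, against each of 13355 other genes. It therefore depends on the size of a change as well as on its pattern. Nearest to PRL were 5 genes that carry only a locus tag: AT1G18360 (0.066), AT5G44530 (0.074), AT5G03130 (0.080), AT4G14270 (0.086) and AT5G48490 (0.086). Their log2 fold changes lay between -1.93 and -1.84. Among the division genes HTB2 came 72nd in that order (0.20) and TOPII 115th (0.24), while AUR1 came 815th (0.62).

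Nearest to AUR1 were AT1G69030 (0.046), ZCF125 (0.069), AT5G19170 (0.072), AT5G15510 (0.073) and the actin gene ACT11 (0.074), with log2 fold changes between -0.74 and -0.65. Of the division genes, AT4G39630 came 37th (0.11), AUR3 39th (0.11), HTR12 46th (0.12), KINESIN-12B 71st (0.13) and KINESIN-13A 116th (0.14). Far from AUR1 in that order were its closest relative AUR2 at 2040th (0.28), TOPII at 10846th (0.52), PRL at 11967th (0.62) and HTB2 at 12310th (0.68). Each of these fell more than AUR1, which alone sets them apart in this measure. Their Pearson's r with AUR1 over the 6 arrays was 0.948 for AUR2, 0.941 for TOPII, 0.909 for PRL and 0.934 for HTB2. All these values share the same 6 arrays, and the order carries no p.

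The nearest measured protein-coding loci on either side of each gene were not called lower. None was adjacent. They stood 5 places before and 4 after PRL, and 3 on either side of AUR1, with unmeasured protein-coding loci between. Around PRL, AT4G02010 stood at log2 -0.12 ± 0.08 (adjusted p = 0.308) and AT4G02090 at 0.22 ± 0.09 (adjusted p = 0.0774). Around AUR1, AT4G32800 rose (log2 0.95 ± 0.14, adjusted p = 0.000244) and AT4G32860 stood at 0.0021 ± 0.07 (adjusted p = 0.988).

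How arrays were put on one scale moved the decreases of PRL and AUR1 without ending either call. The shifts were a larger part of the decrease of AUR1 than of that of PRL. Setting the arrays level on 13 bright poly(A) spike sets, on all 24 or on 18 hybridization control sets raised every log2 difference by 0.15, 0.07 and 0.11. PRL then stood at -1.76, -1.84 and -1.80 and AUR1 at -0.57, -0.65 and -0.61, each still called.

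**Figure D5:**
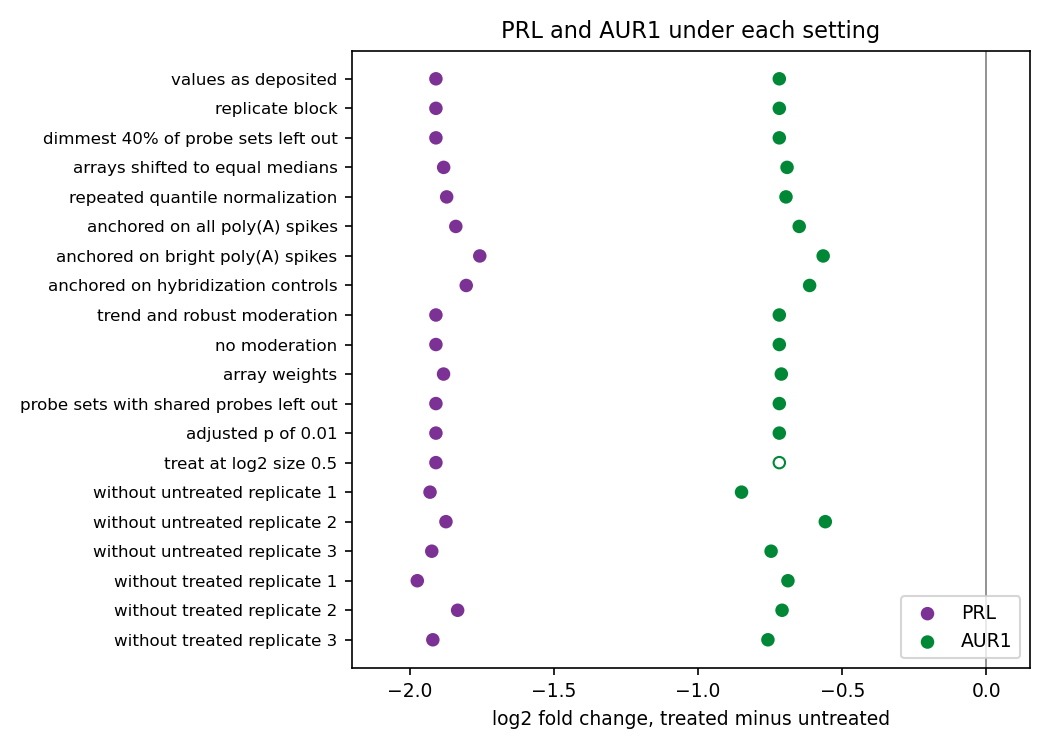
Log2 fold change, treated minus untreated, of PRL and AUR1 under the values as deposited and each alternative setting; filled points passed that setting's threshold and the open point did not. PRL stays between -1.97 and -1.76 and AUR1 between -0.85 and -0.56, and the open point is AUR1 under treat at a log2 size of 0.5.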

How the data were processed

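The deposited values are log2 levels, 1 per probe set and array; the processing notes of the submitters name RMA, without a version. Of 22810 probe sets, 64 control sets were kept apart and the other 22746 tested with no filter on low values. The platform table named 1 gene for 13513, several for 503 and did not list 8730; locus tags were looked up in RefSeq (TAIR10.1, for names and gene order). A gene took its probe set with the highest mean. The table held 0 columns of other samples. The test was lmFit and eBayes of limma 3.58.1 (R 4.3.3), two-sided, treated minus untreated with no covariate, also tested on simulated data. Python 3.11.15 served for joins and plots.

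PRL, AUR1 and all lists were chosen with earlier results of these data known: 173 loci in 12 lists, and 15 loci added once the gene table, but not their values, had been seen. The rule named PRL, AUR1, measured MCM, Aurora and passenger complex loci, the 5 lowest and 3 highest called members of each list, up to 3 not called, and the 5 genes most like each. KINESIN-12B, the nearest measured loci on either side and genes of the added lists stand outside it and were named after their values were seen. Promoter motifs were not analysed here. Same-numbered arrays of the groups deviated from their group means with r between -0.06 and 0.07, so the numbers were not taken to pair samples.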

Additional observations from a re-analysis of the deposited data

How the results depend on the processing

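PRL stayed called under all 13 other settings (log2 -1.91 to -1.76) and without each array in turn (-1.97 to -1.83), and AUR1 under 12 of 13 settings and without each array in turn (-0.85 to -0.56). When treat tested for a log2 size above 0.5, AUR1 (-0.72) lost its call, 2699 probe sets changed, against 9479, and 1 histone gene and 3 mitosis genes were lower; treat asks for a larger change by construction. Leaving out the dimmest 40% of probe sets left 1 replication, 1 histone and 4 mitosis genes lower, of only 2, 1 and 4 tested. With the replicate number as a block, PRL (-1.91) and AUR1 (-0.72) kept their calls, 9190 probe sets changed, and 3 replication, 2 histone and 10 mitosis genes were lower. Without each array in turn, 8408 to 8913 probe sets changed, 2 to 3 replication, 2 histone and 10 mitosis genes were lower, and PRL minus AUR1 stood at -1.32 to -1.08. Inhibitors lower numbered 0 in each setting.

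Signs turned only in genes that had not passed. On bright spikes AT1G07270 stood at 0.053, PSF2 at 0.019, AT5G02420 at 0.12 and CLV3 at 0.018. On all spikes AT5G02420 stood at 0.037, and on hybridization controls AT5G02420 stood at 0.073 and AT1G07270 at 0.0056. Without each array in turn SIM ran between -0.038 and 0.12, MUTE between -0.0053 and 0.19 and AT5G02420 between -0.074 and 0.046. The cause was not tested. Whether ICU2, WYR, AT4G39630, AT2G28620, BUBR1 and CLV3, dim in treated rosettes, were above background was not tested.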
